A study of Arabidopsis thaliana with 15 samples.

Results

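Dehydration for 1 h is set here against 1 h of added abscisic acid (ABA) in young Arabidopsis thaliana plants, 6 of the 15 libraries of the series, 3 per condition, chosen by their labels. All were whole 14-day-old seedlings of the Columbia accession, Col-0, raised for 13 days on agar and moved into liquid Murashige and Skoog medium with 1% sucrose for the last day. The dehydration seedlings were lifted from the liquid and lay on filter paper in the light for 1 h. The ABA seedlings stayed in the liquid with 20 µM ABA, added from a methanol stock, for 1 h. A control was collected before either treatment, and 3 h samples of both treatments serve here as a later view of the same contrast. No column holds seedlings given methanol alone or seedlings handled without drying, so loss of water, removal from the liquid and handling cannot be told apart.

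ABA is the hormone that plants make when water runs short. Receptors of the PYR/PYL family that have bound ABA block clade A type 2C protein phosphatases (PP2C), and this frees SnRK2 kinases, which act on transcription factors that read the promoter core ACGTG, the ABA-responsive element. Loss of water also works through routes that need no ABA, among them the DREB and CBF factors, which read the core CCGAC, and touch and wounding signal through calcium and jasmonate. Setting water loss against added hormone at one time asks which transcripts of early dehydration 1 h of external ABA does not match, and which the hormone moves farther.

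The deposited tables give 1 combined column per condition: 178067955 reads after dehydration 1 h, 163762670 after ABA 1 h and 180444972 in the control. The replicates cannot be separated, so no difference below has a replicate check, no test between conditions was possible, and "higher" and "lower" mean a ratio of at least 2-fold between 2 columns. Levels are CPM, read counts per 1000000 reads of a library size adjusted with edgeR's TMM scaling factors, and log2 ratios are dehydration 1 h over ABA 1 h unless stated. Numbers in brackets after a gene's locus code are its log2 ratio. Intervals after a ratio are exact 95% counting intervals (Clopper-Pearson), which leave out all variation between plants, libraries and sequencing pools. The 3 libraries of a condition were pooled before sequencing, and the labels do not say whether conditions shared a pool, so an effect of pooling cannot be told apart from that of condition. Because whole seedlings were taken, fewer cells of a type and less RNA per cell cannot be told apart either. Of 14 root markers 12 were measured, with a summed level of 142 CPM after dehydration, 190 after ABA and 215 in the control. Of 13 guard cell and stomatal markers 12 were measured, with a summed level of 95.3 CPM after dehydration, 75.9 after ABA and 102 in the control. Of 8 seed storage and oil body markers 1 was measured. The part of tissue make-up in the results was not tested.

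Of 22526 genes, 18877 had a mean of at least 1 CPM over the 5 columns and are called measured. Of the 18876 that gave a ratio, 998 (5.29%) were higher after dehydration than after ABA and 681 (3.61%) were lower, 8.89% in all. These shares are the background for every list count below. The members of the lists were chosen with earlier results of these data known. The bulk of the transcriptome lay close together: the median log2 ratio was −0.02, and the middle of the distribution, from the 25th to the 75th percentile, ran from −0.25 to 0.23. At least 4-fold, 242 genes (1.28%) were higher and 143 (0.758%) lower. All 11 measured reference genes, used to normalise quantitative PCR, lay within 2-fold, with a median of −0.10, and so did all 23 measured photosynthesis genes, with a median of −0.22. With no filter on low levels the number higher was 1781, and with a mean of at least 5 CPM the number lower was 449.

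**Figure D1:**
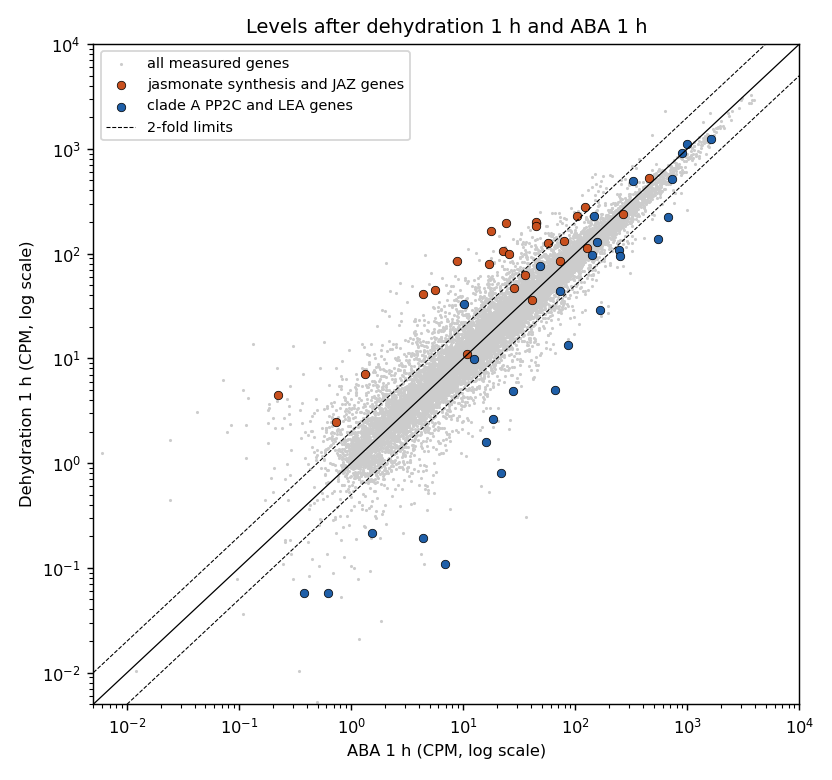
Level of each measured gene after dehydration 1 h (vertical axis) and ABA 1 h (horizontal axis), in CPM on log scales. Orange points, jasmonate synthesis and JAZ genes, lie mostly above the upper 2-fold line, and blue points, clade A PP2C and LEA genes, on or below the lower one or near the diagonal, with 1 LEA gene above the upper line. Genes without reads in a column are not drawn.

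The control column shows where each treatment stood relative to the start. Over all measured genes, 7.49% were at least 2-fold above the control and 5.85% below it after dehydration, and 4.46% were above it and 5.24% below it after ABA. Of the 998 genes higher after dehydration, 494 (49.5%) were at least 2-fold above the control after dehydration while ABA stayed within 2-fold of it. A further 177 were within 2-fold of the control after dehydration and at least 2-fold below it after ABA, 78 were above the control in both treatments, and 30 were above it after dehydration and below it after ABA. Of the 681 genes lower after dehydration, 232 (34.1%) were below the control after dehydration with ABA within 2-fold of it, 183 (26.9%) were above the control after ABA with dehydration within 2-fold, and 68 were above it in both. Both ratios share the control column. A high or low ratio thus stands for several kinds of gene, and the control level is given beside those described below.

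The PP2C genes of the hormone's own circuit were mostly lower after dehydration than after ABA. Of 8 measured clade A PP2C phosphatases, the brakes of ABA signalling, 7 were lower and 0 higher, with a median log2 ratio of −2.25, beside −0.02 over all measured genes. ABI1 (AT4G26080) had 139 CPM after dehydration, 549 after ABA and 68.6 in the control, a log2 ratio of −1.99 (interval −2.01 to −1.97). HAI1 (AT5G59220) had 28.9 CPM after dehydration, 167 after ABA and 3.22 in the control, 5.78-fold lower after dehydration. HAI3 (AT2G29380) had 0.110 CPM after dehydration, 6.86 after ABA and 0.0171 in the control, from 21 reads after dehydration, at a log2 ratio of −5.96 (interval −6.66 to −5.34). All 7 of the lower phosphatases were at least 2-fold above the control after dehydration too, though HAI3 had only 3 reads in the control. ABI2 (AT5G57050, −2.68), HAI2 (AT1G07430, −2.52) and PP2CA (AT3G11410, −1.38) were lower too.

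Of 8 measured receptor genes 3 were higher after dehydration than after ABA, 5 lay within 2-fold and 0 were lower, with a median of 0.64. PYL6 (AT2G40330) had 3.48 CPM after dehydration, 0.276 after ABA and 21.6 in the control, a log2 ratio of 3.66 (interval 3.23 to 4.12). PYL4 (AT2G38310) had 52.3 CPM after dehydration, 10.7 after ABA and 232 in the control, and PYL5 (AT5G05440) had 14.8 CPM after dehydration, 4.33 after ABA and 151 in the control. The 3 receptors thus stood below the control in both treatments and farther below it after ABA. PYR1 (AT4G17870), at a log2 ratio of 0.93, stayed short of 2-fold.

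Of 12 SnRK2 kinases and ABA-linked MAP kinase kinase kinases, 9 lay within 2-fold, 3 were lower and 0 higher, with a median of 0.04. SNRK2.7 (AT4G40010), one of the SnRK2 kinases, had 2.06 CPM after dehydration, 14.1 after ABA and 2.52 in the control. MAPKKK18 (AT1G05100) had 3.39 CPM after dehydration, 17.35 after ABA and 0.279 in the control, and MAPKKK17 (AT2G32510) was lower at a log2 ratio of −1.05 (interval −1.17 to −0.92). SNRK2.3 (AT5G66880), one of the main kinases of the pathway, was at 0.40.

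Genes that set the plant's own ABA level differed in direction. NCED3 (AT3G14440), the 9-cis-epoxycarotenoid dioxygenase that makes the committed step of ABA synthesis, had 49.4 CPM after dehydration, 11.9 after ABA and 2.598 in the control, a log2 ratio of 2.06 (interval 1.99 to 2.13), and was the 1 higher gene of 6 measured in ABA synthesis. Of 5 genes of ABA breakdown and conjugation 2 were lower and 0 higher. Both were 8′-hydroxylases, which inactivate ABA: CYP707A2 (AT2G29090) had 6.88 CPM after dehydration, 27.3 after ABA and 7.54 in the control, and CYP707A1 (AT4G19230) had 24.0 CPM after dehydration, 51.4 after ABA and 3.80 in the control. CYP707A3 (AT5G45340), of the same family, was nearly level at 25.5 CPM after dehydration, 24.2 after ABA and 16.6 in the control, and CYP707A4 (AT3G19270) had a log2 ratio of −0.49. So after dehydration the synthesis gene NCED3 stood higher and 2 of the 4 hydroxylases lower than after ABA.

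Late embryogenesis abundant (LEA) proteins and dehydrins, small hydrophilic proteins that accumulate as cells dry, split into genes nearly level between treatments and genes far lower after dehydration. Of 20 measured members 9 were lower, 1 was higher and 10 lay within 2-fold, with a median of −0.52. RD29A (AT5G52310) had 1229 CPM after dehydration, 1631 after ABA and 18.3 in the control, so both treatments stood far above the control and within 2-fold of each other. Its neighbour on chromosome 5, RD29B (AT5G52300), had 1.596 CPM after dehydration, 16.0 after ABA and 0.364 in the control, 10.05-fold lower after dehydration, at a log2 ratio of −3.33 (interval −3.51 to −3.16). LEA7 (AT1G52690) had 0.811 CPM after dehydration, 21.5 after ABA and 0.261 in the control and LEA4-5 (AT5G06760) had 5.03 CPM after dehydration, 66.0 after ABA and 0.648 in the control. RAB18 (AT5G66400), a dehydrin named for its response to ABA, had 2.63 CPM after dehydration, 18.3 after ABA and 3.76 in the control, within 2-fold of the control after dehydration and above it after ABA. EM6 (AT2G40170, −3.44), AT3G15670 (−4.48) and LEA18 (AT2G35300, −2.85), with 11, 37 and 41 reads after dehydration, were also lower. EM1 (AT3G51810, −2.72), named after its values were seen, was lower from 11 reads after dehydration and 63 after ABA. EM1, EM6 and LEA18 averaged below 1 CPM over the 2 columns compared. They counted as measured through ABA 3 h, with 4.33, 14.2 and 27.0 CPM there. The 1 higher member, COR15B (AT2G42530), named after its values were seen, had 32.8 CPM after dehydration, 10.08 after ABA and 0.267 in the control. Of the 9 lower members 9 were at least 2-fold above the control after ABA and 7 after dehydration.

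Promoter stretches are shown for the 4 listed genes with the lowest ratios that hold the ACGTG core upstream of their start. Promoters were read from 250 bases before to 50 after the annotated gene start in the RefSeq genome TAIR10.1, and each line gives 10 bases on both sides of the match nearest the start, on the gene's strand, with the motif or its reverse complement CACGT in capitals. HAI3 is chr2:12608630-12608654 on the plus strand, LEA7 chr1:19619638-19619662 on the plus strand, AT3G15670 chr3:5311039-5311063 on the minus strand and LEA4-5 chr5:2090469-2090493 on the minus strand.
HAI3: aatgcaagtaACGTGtaatgacatt
LEA7: ctaatcggggCACGTacctacacac
AT3G15670: atgtgctaatACGTGtcttcttctc
LEA4-5: cgtctcactgACGTGtcgtcaagaa
RD29A and RD29B, which lie side by side and differ in their ratios, are shown for both cores. The window of RD29A holds 4 CCGAC and 0 ACGTG matches, that of RD29B 1 CCGAC and 4 ACGTG. Sites beyond the window, on either side of the annotated start, were not looked for. The 0 matches therefore do not mean that RD29A lacks an ACGTG site. RD29A is chr5:21240674-21240698, and the RD29B matches are chr5:21236875-21236899 for CCGAC and chr5:21236973-21236997 for ACGTG, all on the plus strand.
RD29A, CCGAC: agatatactaCCGACatgagttcca
RD29B, CCGAC: taaacgtggaCCGACtaaaactaaa
RD29B, ACGTG: actggctgagACGTGgcaggacgaa
Over whole groups, ACGTG on either strand was found in 41.9% of the promoters of genes lower after dehydration, 31.3% of those higher and 28.2% of all measured genes. With the limit at 4-fold the shares were 49.3% of lower genes and 35.1% of higher genes. CACGTG, which contains ACGTG on both strands, was found in 15.3% of promoters of lower genes, 7.62% of higher genes and 9.02% of all. CCGAC differed little between groups, at 15.3% of lower genes, 14.8% of higher genes and 16.4% of all. Within the LEA list, 8 of the 9 lower genes and 6 of the other 11 held ACGTG, and 7 of the 9 and 4 of the other 11 held CCGAC. The 9 include EM1, EM6 and LEA18, which counted as measured only through their ABA 3 h levels. Among the ABA and drought factors ACGTG was in 6 of 11 lower genes and 6 of the other 8, and among the phosphatases in 4 of 7 lower genes and the 1 other. These are letters in a window, not binding sites.

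**Figure D2:**
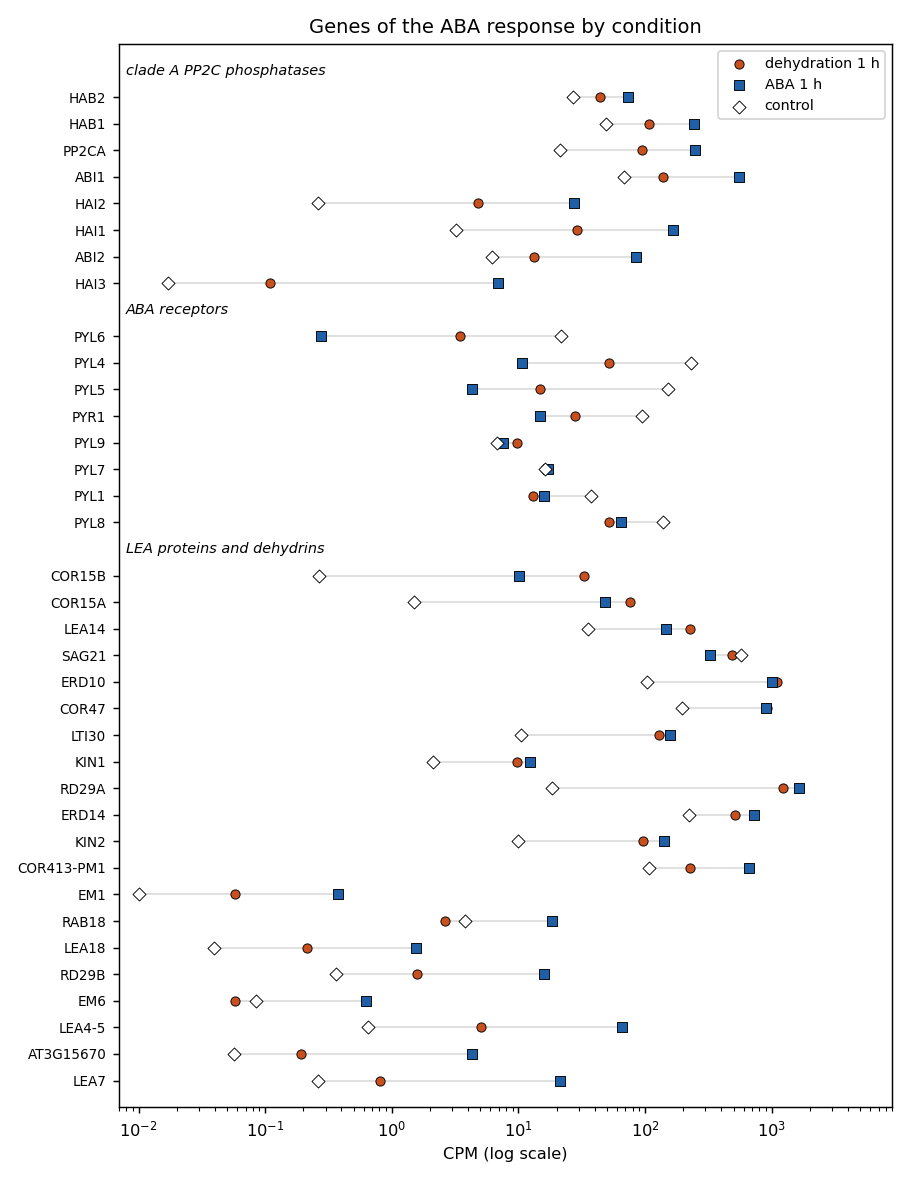
CPM (log scale) after dehydration 1 h (orange circles), after ABA 1 h (blue squares) and in the control (white diamonds) for the measured PP2C phosphatases, ABA receptors and LEA genes, ordered by ratio within each group. Each grey line spans the 3 values of a gene, and values under 0.01 CPM are drawn at 0.01. The phosphatases stand in the order control, dehydration, ABA, and the lower LEA genes have ABA far to the right.

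Transcription factors downstream of ABA lay on the side of the phosphatases. Of 19 measured members 11 were lower after dehydration and 0 higher, with a median of −1.13. The homeodomain gene HB-7 (AT2G46680) had 25.2 CPM after dehydration, 170.4 after ABA and 17.3 in the control. NAC019 (AT1G52890) had 34.1 CPM after dehydration, 171 after ABA and 4.55 in the control, at a log2 ratio of −2.33 (interval −2.36 to −2.29), and the heat shock factor HSFA6B (AT3G22830) had 15.4 CPM after dehydration, 86.7 after ABA and 0.188 in the control. The AFP genes, which encode partners that restrain the ABA factor ABI5 (AT2G36270), were lower too, AFP1 (AT1G69260) at −2.05 and AFP3 (AT3G29575) at −1.73, and MYB102 (AT4G21440) was at −2.19. All 11 lower factors were at least 2-fold above the control after ABA, and 7 of them after dehydration.

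The DREB and CBF factors, the arm of the drought and cold response that reads CCGAC, were mostly higher after dehydration. Of 11 measured members 7 were higher and 1 lower, with a median of 1.12. DDF1 (AT1G12610) had 6.24 CPM after dehydration, 0.0721 after ABA and 0.0625 in the control, from 12 reads after ABA, at a log2 ratio of 6.44 (interval 5.63 to 7.39). DDF2 (AT1G63030) showed the same pattern at a log2 ratio of 6.203 (interval 5.15 to 7.52), with 592 reads after dehydration, 7 after ABA and 0 in the control. DREB2A (AT5G05410), the main factor of this family in drought, had 34.6 CPM after dehydration, 14.7 after ABA and 2.68 in the control, and DREB2B (AT3G11020) had a log2 ratio of 1.12. CBF1 (AT4G25490) had 11.4 CPM after dehydration, 3.25 after ABA and 0.0568 in the control, CBF2 (AT4G25470) 25.4 CPM after dehydration, 12.1 after ABA and 1.31 in the control and CBF3 (AT4G25480) 19.8 CPM after dehydration, 9.92 after ABA and 0.0398 in the control. The CBF genes lie next to each other and are close copies, so reads could be split between them. CBF3 was just short of the limit, at a log2 ratio of 0.998. AT1G22190, an AP2-domain gene of this list, had 124 CPM after dehydration, 35.2 after ABA and 74.3 in the control. Of the 7 higher members 6 were at least 2-fold above the control after dehydration and 5 after ABA. The 1 lower member, CBF4 (AT5G51990), named after its values were seen, had 0.696 CPM after dehydration, 1.399 after ABA and 0.0171 in the control.

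Jasmonate genes lay mostly on the higher side. Jasmonate is the wound and touch hormone, made from plastid lipids by lipoxygenase, allene oxide synthase, allene oxide cyclase and a reductase, and its JAZ repressors and inactivating enzymes are induced by the hormone itself. Of 36 measured members in 3 lists 23 (63.9%) were higher after dehydration, beside 5.29% of all measured genes, and 0 were lower. The lists were chosen with earlier results of these data known, so this share is not independent of them. Of the 23, 19 were at least 2-fold above the control after dehydration, 16 lay within 2-fold of it after ABA and 5 were below it after ABA.

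In jasmonate synthesis 7 of 13 genes were higher, with a median of 1.17. The lipoxygenase LOX3 (AT1G17420) had 163 CPM after dehydration, 17.77 after ABA and 10.9 in the control, 9.17-fold higher after dehydration, and LOX4 (AT1G72520) had 85.5 CPM after dehydration, 8.74 after ABA and 12.2 in the control. The cyclases AOC3 (AT3G25780) and AOC1 (AT3G25760), close copies, had log2 ratios of 2.22 and 2.22. OPR3 (AT2G06050), the reductase, had 199 CPM after dehydration, 44.8 after ABA and 31.4 in the control, and OPCL1 (AT1G20510), a ligase of the peroxisomal steps, had 184 CPM after dehydration, 44.2 after ABA and 47.1 in the control. In each of these 6 genes ABA lay within 2-fold of the control.

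Of the 12 JAZ repressors 9 were higher and 0 lower, with a median of 1.85. JAZ10 (AT5G13220) had 41.2 CPM after dehydration, 4.38 after ABA and 3.59 in the control, at a log2 ratio of 3.23 (interval 3.12 to 3.34), and JAZ5 (AT1G17380) had 45.0 CPM after dehydration, 5.54 after ABA and 3.57 in the control. JAZ8 (AT1G30135), at 4.44 CPM after dehydration, 0.222 after ABA and 0.887 in the control, had the highest ratio of the family. JAZ9 (AT1G70700) had 194 CPM after dehydration, 23.8 after ABA and 127 in the control, within 2-fold of the control after dehydration and below it after ABA, at a log2 ratio of 3.03. Of the 9, 5 were at least 2-fold above the control after dehydration and 4 at least 2-fold below it after ABA. JAZ2 (AT1G74950, 1.94) and JAZ7 (AT2G34600, 2.42) were higher as well. Among inactivation and response genes 7 of 11 were higher: the jasmonoyl-isoleucine oxidases CYP94B1 (AT5G63450), at 22.7 CPM after dehydration, 2.798 after ABA and 4.03 in the control, and CYP94C1 (AT2G27690), at 22.8 CPM after dehydration, 3.61 after ABA and 8.74 in the control, the amidohydrolase ILL6 (AT1G44350), at a log2 ratio of 2.12, and MYC2 (AT1G32640), the main factor of the pathway, at 202 CPM after dehydration, 72.3 after ABA and 51.9 in the control. CYP94B3 (AT3G48520, 1.36) and VSP1 (AT5G24780, 1.22) were also higher.

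**Figure D3:**
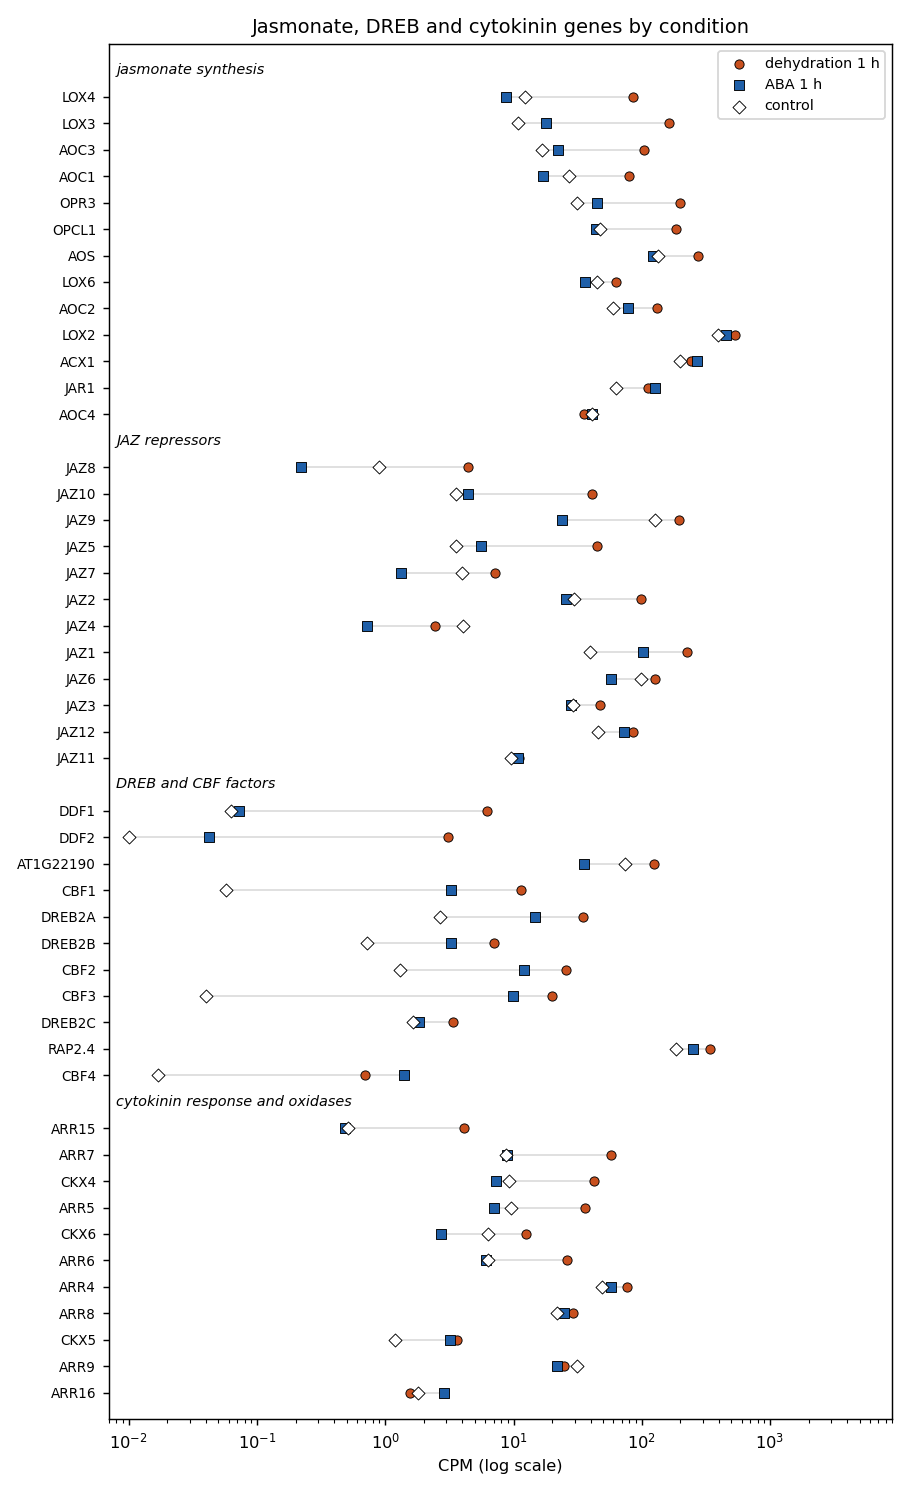
CPM (log scale) after dehydration 1 h (orange circles), after ABA 1 h (blue squares) and in the control (white diamonds) for measured jasmonate synthesis, JAZ, DREB and CBF, and cytokinin genes, ordered by ratio within each group. Grey lines span the 3 values, and values under 0.01 CPM are drawn at 0.01. For LOX3, OPR3, JAZ10, JAZ5 and ARR7 the ABA square lies near the control diamond and the dehydration circle far to the right.

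Of 19 measured ERF factors of wound and ethylene response 11 were higher and 1 lower, with a median of 1.07. RRTF1 (AT4G34410), a redox-responsive factor, had 13.0 CPM after dehydration, 0.300 after ABA and 0.352 in the control, a log2 ratio of 5.43 (interval 5.03 to 5.87). ERF6 (AT4G17490) had 20.7 CPM after dehydration, 3.87 after ABA and 27.4 in the control, within 2-fold of the control after dehydration and below it after ABA. Of the 11, 4 were at least 2-fold above the control after dehydration, while 7 were at least 2-fold below it after ABA. ERF98 (AT3G23230, 4.35), ORA47 (AT1G74930, 3.43), ERF13 (AT2G44840, 2.6003) and CEJ1 (AT3G50260, 2.55) completed the 6 largest ratios, and ORA59 (AT1G06160), the 1 lower member, named after its values were seen, was at −1.25.

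WRKY factors, which read the W-box core TTGAC in defence genes, were higher in 13 of 20 members and lower in 0, with a median of 1.19. WRKY30 (AT5G24110) had 25.4 CPM after dehydration, 2.19 after ABA and 0.421 in the control, WRKY18 (AT4G31800) had 111 CPM after dehydration, 11.1 after ABA and 29.4 in the control and WRKY33 (AT2G38470) had 249 CPM after dehydration, 48.7 after ABA and 130.2 in the control. WRKY40 (AT1G80840) had 51.7 CPM after dehydration, 13.5 after ABA and 40.0 in the control, near the control after dehydration and below it after ABA. Of the 13, 6 were at least 2-fold above the control after dehydration and 4 at least 2-fold below it after ABA. WRKY28 (AT4G18170, 2.68) and WRKY48 (AT5G49520, 1.70) were among the higher genes. TTGAC was found in 62.1% of promoters of higher genes, 51.8% of lower genes and 51.2% of all measured genes.

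Of 10 touch and calmodulin-like genes 4 were higher, 6 lay within 2-fold and 0 were lower. TCH3 (AT2G41100), a calmodulin-like gene first found by touching plants, had 564 CPM after dehydration, 202 after ABA and 333 in the control. CML39 (AT1G76640, 4.29), CML38 (AT1G76650, 3.27) and CML37 (AT5G42380, 1.198) were the others. The touch genes TCH2 (AT5G37770), with 46.8 CPM after dehydration, 34.3 after ABA and 51.1 in the control, and TCH4 (AT5G57560), with 61.7 CPM after dehydration, 57.6 after ABA and 243 in the control, both named after their values were seen, lay within 2-fold between dehydration and ABA. Of 11 zinc finger genes of the ZAT and AZF type 4 were higher: AT3G53600 at 3.35, ZAT10 (AT1G27730), at 61.1 CPM after dehydration, 16.7 after ABA and 31.9 in the control, ZAT11 (AT2G37430) at 1.68 and ZAT12 (AT5G59820) at 1.33. RBOHD (AT5G47910), the oxidase that makes the apoplastic oxidative burst, was the 1 higher gene of 10 reactive oxygen enzymes, with 137 CPM after dehydration, 45.7 after ABA and 104 in the control.

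CGCGTT, a core of calmodulin-binding and rapid wound response elements, was found in 8.73% of promoters of genes higher after dehydration, 2.36% of lower genes and 3.74% of all measured genes. The 4 listed genes with the highest ratios that hold it upstream are shown, with the motif or its reverse complement AACGCG in capitals. DDF2 is chr1:23368469-23368494 on the minus strand, LOX4 chr1:27308324-27308349 on the plus strand, AT5G43620 chr5:17522424-17522449 on the plus strand and AT1G66500 chr1:24812713-24812738 on the minus strand.
DDF2: atgtattacgCGCGTTcgattcgttc
LOX4: ttgaaaaattCGCGTTttaatttttt
AT5G43620: aacatgtgacAACGCGcgattcacgc
AT1G66500: aacacgtgacAACGCGcgattcacgc
The last pair carry the same letter at 25 of 26 positions. Both genes are annotated as part of pre-mRNA cleavage complex II. They were the 2 higher genes of 25 measured in mRNA 3′ end processing, beside 5.29% of all measured genes, and 0 were lower. AT5G43620 had 40.6 CPM after dehydration, 4.41 after ABA and 2.399 in the control, and AT1G66500 had 48.9 CPM after dehydration, 7.81 after ABA and 4.58 in the control. As related copies they may share reads. The other 23 members lay within 2-fold, with the poly(A) polymerase genes PAPS1 (AT1G17980) at 0.75 and PAPS2 (AT2G25850) at 0.61.

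Several cytokinin response genes were higher after dehydration as well. Of 11 measured members 6 were higher and 0 lower, with a median of 2.09. Of the type A response regulators, which cytokinin induces quickly and which damp its signal, 4 were higher. ARR7 (AT1G19050) had 57.7 CPM after dehydration, 8.97 after ABA and 8.78 in the control and ARR15 (AT1G74890) 4.09 CPM after dehydration, 0.486 after ABA and 0.512 in the control. ARR5 (AT3G48100) had 36.2 CPM after dehydration, 7.09 after ABA and 9.48 in the control and ARR6 (AT5G62920) 26.1 CPM after dehydration, 6.14 after ABA and 6.30 in the control. The oxidases CKX4 (AT4G29740), at 42.2 CPM after dehydration, 7.33 after ABA and 9.29 in the control, and CKX6 (AT3G63440), at 2.199 on the log2 scale, degrade cytokinin. In all 4 of these higher regulators the level after ABA lay within 2-fold of the control. The type A regulators ARR4 (AT1G10470), ARR8 (AT2G41310), ARR9 (AT3G57040) and ARR16 (AT2G40670), named after their values were seen, lay within 2-fold between dehydration and ABA.

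Lists of other hormones held genes in both directions. In ethylene synthesis and signalling 1 of 19 genes was higher and 2 lower, beside 5.29% and 3.61% of all measured genes. The higher count for ethylene is thus near the share over all genes. In the gibberellin and brassinosteroid list and the auxin list below, the counts are small but lie above both shares. ACS6 (AT4G11280), a synthase of the ethylene precursor, had 58.6 CPM after dehydration, 13.4 after ABA and 29.2 in the control. The receptor ERS2 (AT1G04310) had 6.28 CPM after dehydration, 41.7 after ABA and 27.6 in the control, and EBF2 (AT5G25350), which marks the ethylene factor EIN3 (AT3G20770) for breakdown, had 76.8 CPM after dehydration, 268 after ABA and 283 in the control, both lower after dehydration with ABA within 2-fold of the control. Among 18 gibberellin and brassinosteroid genes the 3 higher ones were all gibberellin 2-oxidases, which inactivate gibberellin: GA2OX6 (AT1G02400) had 75.5 CPM after dehydration, 22.1 after ABA and 6.49 in the control, GA2OX2 (AT1G30040) had 14.4 CPM after dehydration, 3.79 after ABA and 3.79 in the control, and GA2OX1 (AT1G78440) was at 3.29. The 2 lower ones were BEE3 (AT1G73830), a growth factor gene induced by brassinosteroid, with 2.12 CPM after dehydration, 25.6 after ABA and 64.6 in the control, and BR6OX2 (AT3G30180), at −1.35. Of 18 auxin response genes 4 were higher, IAA1 (AT4G14560, 1.64), IAA2 (AT3G23030, 1.33), IAA5 (AT1G15580, 1.26) and GH3.3 (AT2G23170, 1.15), and 2 lower, SAUR1 (AT4G34770, −3.21) and GH3.5 (AT4G27260, −1.21).

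Genes of proline synthesis and breakdown differed in direction. P5CS1 (AT2G39800), the rate-limiting enzyme of proline synthesis, had 65.2 CPM after dehydration, 309 after ABA and 28.1 in the control, 4.74-fold lower after dehydration. Proline dehydrogenase, the gene PRODH or ERD5 (AT3G30775), which degrades proline, had 168 CPM after dehydration, 39.5 after ABA and 152 in the control, and its relative AT5G38710 had 13.6 CPM after dehydration, 2.51 after ABA and 2.67 in the control. Galactinol synthases, the first step towards the protective sugar raffinose, differed in direction: GOLS3 (AT1G09350) had 22.2 CPM after dehydration, 5.70 after ABA and 0.210 in the control, and GOLS2 (AT1G56600) had 11.2 CPM after dehydration, 29.4 after ABA and 0.847 in the control. In the list of 12 genes 3 were higher and 2 lower. So for P5CS1 and GOLS2 the ABA level was the higher one, and for the dehydrogenases and GOLS3 the dehydration level.

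Genes that respond to sugar starvation and darkness were higher in 6 of 16 members and lower in 3, with a median of 0.68. BT2 (AT3G48360), a scaffold gene that sugar represses, had 61.4 CPM after dehydration, 13.9 after ABA and 356 in the control. Its relative BT5 (AT4G37610) had 22.8 CPM after dehydration, 3.70 after ABA and 98.6 in the control. DIN10 (AT5G20250), a dark-inducible gene, had 551 CPM after dehydration, 178 after ABA and 1011 in the control. BT2 and BT5 lay at least 2-fold below the control in both treatments, DIN10 after ABA. ASN1 (AT3G47340), an asparagine synthetase, had 272 CPM after dehydration, 91.2 after ABA and 100.5 in the control. The lower members were TPS5 (AT4G17770), with 44.0 CPM after dehydration, 118 after ABA and 27.8 in the control, KMD4 (AT3G59940), at −1.24, and EXO (AT4G08950), named after its values were seen, at −1.15. The dehydrating seedlings had left a medium with sucrose, and the part of that in these values was not tested.

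Cell wall, water channel and surface genes were mixed. Of 25 expansins and xyloglucan endotransglucosylases 5 were higher, among them EXPA1 (AT1G69530), with 158 CPM after dehydration, 57.3 after ABA and 297 in the control, EXPA14 (AT5G56320) at 1.75, EXPA15 (AT2G03090) at 1.52 and XTH20 (AT5G48070) at 1.35. A further 4 were lower, among them XTH16 (AT3G23730, −1.75) and XTH9 (AT4G03210, −1.37). Of 19 aquaporins, the water channels of plasma membrane and vacuole, 0 were higher and 2 lower, TIP2;3 (AT5G47450), with 5.62 CPM after dehydration, 20.6 after ABA and 15.4 in the control, and TIP4;1 (AT2G25810), at −1.101. Their median was −0.44, with 18 of 19 ratios below 0. In cuticle, suberin and lipid transfer, 4 of 11 genes were lower and 0 higher: MYB41 (AT4G28110), at 0.194 CPM after dehydration, 1.80 after ABA and 0.0227 in the control, LTP3 (AT5G59320), at 1.34 CPM after dehydration, 7.07 after ABA and 1.32 in the control, LTP4 (AT5G59310) at −2.14 and ASFT (AT5G41040), a feruloyl transferase of suberin, at 9.45 CPM after dehydration, 33.4 after ABA and 10.5 in the control. All 11 ratios of that list lay below 0. So did those of all 11 measured reference genes and of 21 of 23 photosynthesis genes, so a shared sign is not particular to the water channel and surface lists.

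Clock, heat and low-oxygen genes showed few differences. Over all measured genes 5.29% were higher and 3.61% lower, and 1 called gene in a list of 18 or 13 lies near those shares. Of 23 clock genes 3 were higher, the evening genes PRR5 (AT5G24470), with 116 CPM after dehydration, 23.7 after ABA and 7.41 in the control, and FKF1 (AT1G68050), with 18.7 CPM after dehydration, 6.005 after ABA and 1.26 in the control, and AT4G33980, at 1.45. Both treatments lasted 1 h and the control was collected before them. The part of time of day in these values was not tested. Of 18 heat shock genes 1 was lower, the coactivator MBF1C (AT3G24500), with 1.98 CPM after dehydration, 8.95 after ABA and 21.1 in the control, and 0 were higher, although 13 were at least 2-fold below the control after dehydration and 14 after ABA. In hypoxia and fermentation 1 of 13 was higher, HRE1 (AT1G72360, 1.70), and 1 lower, the sucrose synthase SUS1 (AT5G20830, −1.03). ADH1 (AT1G77120), alcohol dehydrogenase, had 37.7 CPM after dehydration, 63.5 after ABA and 20.9 in the control, short of 2-fold. Of the root markers 2 were higher, WOX5 (AT3G11260, 1.25) and NRT2:1 (AT1G08090, 1.23). Lower were 3 root hair genes, PRP3 (AT3G62680, −1.39), COBL9 (AT5G49270, −1.09) and EXPA7 (AT1G12560, −1.08). RHD6 (AT1G66470), another root hair gene of that list, named after its values were seen, lay within 2-fold. Of the guard cell markers MYB60 (AT1G08810), a factor of stomatal opening, was higher at 10.11 CPM after dehydration, 4.45 after ABA and 11.5 in the control, as was HT1 (AT1G62400) at 1.01.

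**Figure D4:**
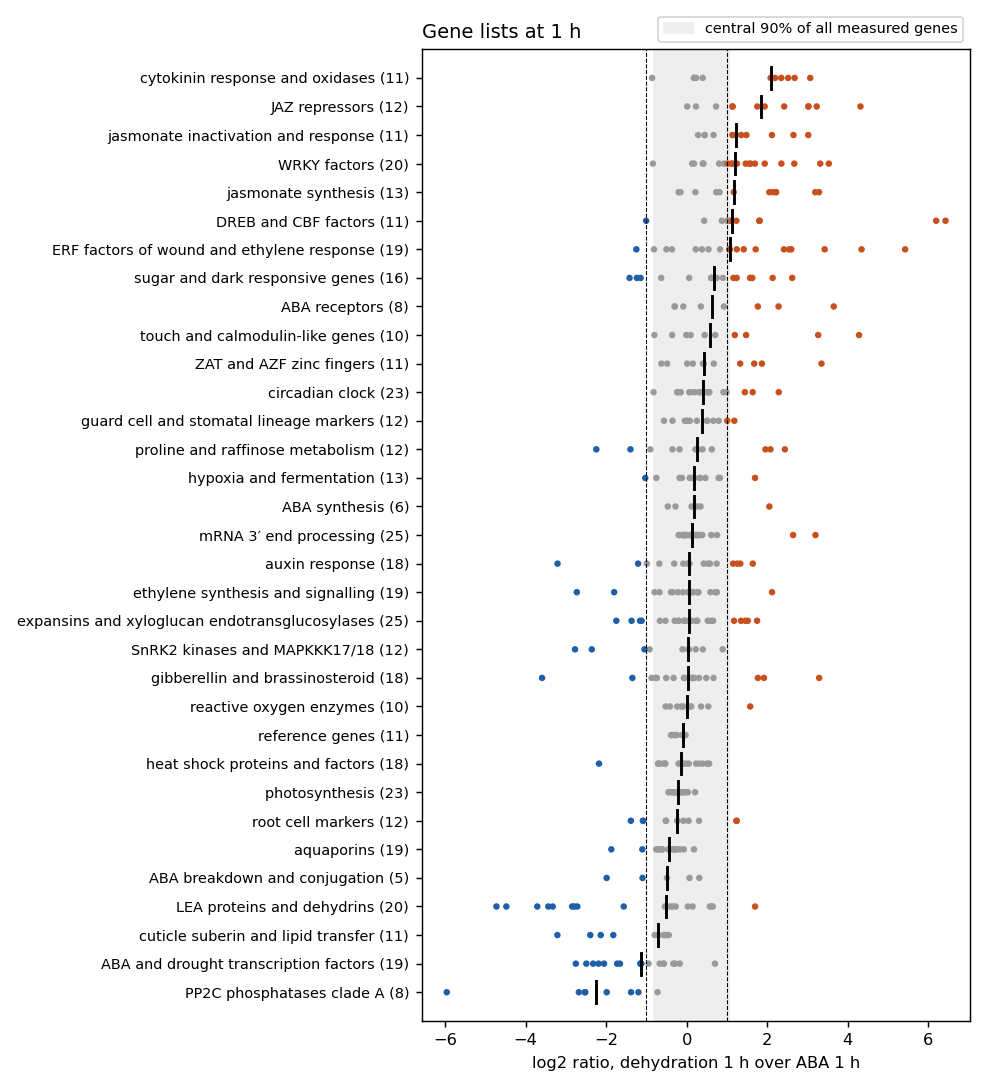
Log2 ratio of dehydration 1 h over ABA 1 h for the measured members (number in brackets) of each gene list with at least 5 of them. Orange points are at least 2-fold higher, blue points at least 2-fold lower, black bars are list medians and the grey band holds the central 90% of all measured genes. Cytokinin, JAZ, jasmonate, WRKY, ERF, and DREB and CBF lists have medians above the upper 2-fold line, and the PP2C list and the ABA and drought factors below the lower one.

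Ranked by ratio alone, among genes with at least 10 CPM in one of the columns, the highest was AT1G22810, an AP2-type DNA-binding protein gene, with 13.7 CPM after dehydration and 0.132 after ABA, from 22 reads, with 1 read in the control, at a log2 ratio of 6.69 (interval 6.09 to 7.37). RRTF1, above, came second. PP2-A5 (AT1G65390), a phloem protein gene, had 81.4 CPM after dehydration, 2.05 after ABA and 3.00 in the control, and PP2-B13 (AT1G56240) had 14.4 CPM after dehydration, 0.576 after ABA and 3.41 in the control. GAT1_2.1 (AT1G15040), a glutamine amidotransferase-like gene, had 43.4 CPM after dehydration, 2.22 after ABA and 29.5 in the control, with ABA below the control. The others were AT1G56660 (4.41), AT5G62360 (4.25), PCK2 (AT5G65690), a phosphoenolpyruvate carboxykinase (4.07), ABR1 (AT5G64750, 3.96) and IGMT2 (AT1G21120), an indole glucosinolate methyltransferase (3.83). Of these 10 genes 9 were at least 2-fold above the control after dehydration, and 4 at least 2-fold below it after ABA.

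At the other end CIB1 (AT4G34530) had 0.303 CPM after dehydration, 36.5 after ABA and 61.1 in the control, a log2 ratio of −6.91, but its row overlaps another gene on the same strand and has no FPKM, so the value is uncertain. AT3G03341 had 0.528 CPM after dehydration, 16.9 after ABA and 0.0682 in the control, at a log2 ratio of −5.00 (interval −5.30 to −4.72). TSPO (AT2G47770), a membrane protein gene of the ABA response, had 0.602 CPM after dehydration, 14.3 after ABA and 0.171 in the control. HEC1 (AT5G67060), a helix-loop-helix factor, had 1.104 CPM after dehydration, 20.6 after ABA and 9.56 in the control. LEA7, LEA4-5, BEE3 and RD29B, above, were also among the 10, with AT2G34610 (−3.41) and AT5G57760 (−3.36). Of the 10, 7 were at least 2-fold above the control after ABA and 5 at least 2-fold below it after dehydration.

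Gene structure, which the ratio does not use, was set beside that of all measured genes. In TAIR10.1, 24.1% of genes higher after dehydration and 33.2% of lower genes had a single exon, beside 13.3% of all measured genes. The median number of exons was 3 in higher genes, 2 in lower genes and 5 in all. The median mRNA length was 1736 bases in higher genes, 1474.5 in lower genes and 1763 in all. With the limit at 4-fold the higher and lower genes were close in exon number. Single-exon genes made up 30.2% of the higher and 32.4% of the lower ones, and the median number of exons was 2.5 and 2. The median mRNA length was then 1629.5 bases in higher and 1267 in lower genes.

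The same contrast at 3 h uses other libraries and columns. Of the 998 genes higher at 1 h, 738 (73.9%) were higher by 2-fold or more in dehydration 3 h against ABA 3 h too, beside 9.15% of all measured genes, and 4 were at least 2-fold lower. Of the 681 lower at 1 h, 425 (62.4%) were also lower at 3 h, beside 6.83% of all, and 14 were higher. The filter for measured genes used the 3 h columns too, so some genes entered through a high 3 h level. With a mean of at least 1 CPM over the 2 columns compared, 969 of the 998 and 628 of the 681 remained. The part of this filter in the shares at 3 h was not tested. Of the 1727 genes higher at 3 h the 738 are 42.7%, and of the 1290 lower ones the 425 are 32.9%. The ratio kept its sign in 960 of the higher genes (96.2%) and 608 of the lower ones (89.3%). Each of the 10 highest and 10 lowest ranked genes was past 2-fold on the same side at 3 h.

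By gene, the LEA genes named above as lower at 1 h included these 3 h ratios: RD29B at −4.25, LEA7 at −3.24 and RAB18 at −3.15 on the log2 scale. Of the 8 measured phosphatases 5 were still at least 2-fold lower at 3 h, and the list median was −1.31, against −2.25 at 1 h. ABI1 and PP2CA lay closer together: ABI1 was at −0.29 at 3 h and −1.99 at 1 h, PP2CA at −0.07 and −1.38. HAI3 was nearly unchanged, at −5.86 and −5.96. NAC019 was at −0.56 at 3 h, against −2.33 at 1 h, and the median of ABA and drought factors was −0.22. DREB and CBF genes lay farther apart, with CBF1 at 3.48, CBF2 at 2.58 and DREB2A at 2.52 and a list median of 2.52. NCED3 was at 3.05, CYP707A2 at −4.02 and CYP707A1 at −2.82. GOLS3 was at 6.27, and GOLS2 stood on the other side of 0 from its 1 h value, at 0.90. Jasmonate medians at 3 h were 1.76 for synthesis and 1.45 for the JAZ genes. Aquaporins had a median of 0.82 at 3 h, with 9 of 19 past 2-fold on the higher side. RD29A has no usable ABA 3 h count and gives no ratio there.

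**Figure D5:**
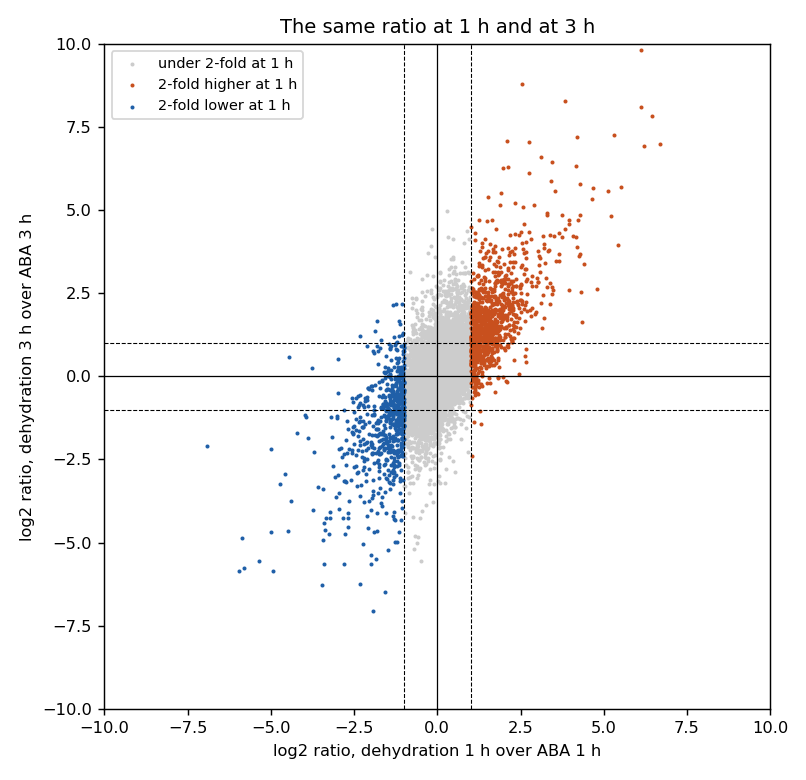
Log2 ratio of dehydration over ABA at 1 h (horizontal axis) and 3 h (vertical axis) for each measured gene; the columns of the axes come from different libraries. Orange genes are those 2-fold or more higher in the 1 h contrast and blue genes those 2-fold or more lower, and most of both lie on the same side of 0 at 3 h.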

How the data were processed

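RNA of 15 libraries, 3 in each of 5 conditions, was made into stranded TruSeq mRNA libraries and read as single 100-cycle reads on an Illumina sequencer, per the labels. The authors deposited a table of read counts per gene and a table of FPKM, each with 1 combined column per condition. TopHat2 2.0.8, Cufflinks 2.1.1, Cuffdiff, DESeq2 and the TAIR10 build are named in the submitters' processing notes, without roles. The sources used here do not say how the columns were combined. The 3 replicates per condition are not separate in these columns, so the planned edgeR quasi-likelihood test and every other test were not run.

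Counts of 22526 genes were scaled with TMM factors (edgeR 4.0.16, R 4.3.3) over the 5 columns. Genes with a mean of at least 1 CPM were called measured. The ratio of dehydration 1 h to ABA 1 h was taken from scaled counts, called at 2-fold, and given an exact 95% Clopper-Pearson interval, which covers counting error only. FPKM served as a check: after a shift of 0.015 on the log2 scale, its ratio lay within 0.1 of the count ratio in 98.8% of 18849 genes. 1 count of 0, RD29A in ABA 3 h beside a large FPKM, was treated as missing. 1227 rows overlap another gene on the same strand and are uncertain. Promoters and gene structures came from RefSeq TAIR10.1, matched by locus. The ratio and interval code was tested on simulated data (Python 3.11.15, SciPy 1.17.1, pandas 2.3.3).

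The lists hold 521 members in 34 lists, of which 511 were in the table and 482 distinct genes were measured (106 higher, 60 lower). The members and lists were chosen with earlier results of these data known. Genes named are the 10 with the highest and the 10 with the lowest ratio among those with at least 10 CPM in a column compared, up to 6 members of each list with the largest ratios in either direction, and a short set of known response genes. Those outside this rule are marked where they appear. Alternatives were other scalings, filters, FPKM with pseudocounts, the whole interval past 2-fold, and overlapping rows left out.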

Additional observations from a re-analysis of the deposited data

How the results depend on the processing

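No paired analysis was possible because each condition has 1 combined column, so the replicate numbers of the labels have no columns of their own. For the same reason the fits leaving out each replicate, the replicate block and DESeq2's test were not run. Over 10 alternatives the number of genes higher after dehydration ran between 679 and 1781 and the number lower between 449 and 1013, and genes higher made up between 57.5% and 65.5% of those called. Without a filter on low levels 1781 genes were higher, and with a mean of at least 5 CPM 449 were lower: these settings test more and fewer genes. Of 2123 values for 217 named genes, 2101 kept their side of 2-fold, 17 no longer passed it, 5 newly passed it and 0 reversed. A reversal was counted only for values past 2-fold in the main setting, so the signs of smaller ratios were not compared. Of 339 list medians 336 kept their side of 2-fold and 0 reversed by the same rule, and 643 of 680 list counts stayed within 1.5 times. With FPKM and a pseudocount of 1, 763 of the 998 higher and 449 of the 681 lower genes were still past 2-fold. Genes with few reads, such as HAI3 and EM6 after dehydration, have wide intervals.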

Other observations

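Gene families as the files annotate them were counted after the values were seen, and no test was made. Among 86 families with at least 20 measured genes, the AP2 or integrase-type DNA-binding family had 21 of 52 genes higher after dehydration than after ABA and 5 lower. Immune receptors of the TIR-NBS-LRR class, which sense pathogen effectors, had 15 of 48 genes higher and 0 lower, with a median log2 ratio of 0.85, and those of the CC-NBS-LRR class 5 of 23 higher. Lectin protein kinases of the concanavalin A type had 8 of 25 higher, VQ motif proteins, partners of WRKY factors, 6 of 20, and Cys/His-rich C1 proteins 13 of 53 with 2 lower. On the other side, lipid-transfer and 2S albumin proteins had 10 of 50 genes lower and 1 higher, and the peroxidase superfamily 10 of 53 lower and 2 higher. Beside these shares, 5.29% of all measured genes were higher and 3.61% lower.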
